A study of Mus musculus with 4 samples.

Results

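The genes described here are 44 cell cycle and proliferation genes, named by their symbols among the 24421 gene symbols counted, and all 44 had a row. They fall into 5 groups by role, which are 16 genes of the G2 and M phases, 15 genes of S phase entry and DNA replication, 5 G1 cyclins and kinases, 5 inhibitors of cyclin-dependent kinases (CDKs), and 3 pocket proteins. The rule names the genes by symbol and uses no threshold on their values, but the list was drawn up with earlier results of these data known. They were compared between DPPIV+ and DPPIV- fibro-adipogenic progenitors (FAPs, the PDGFRa+ stromal cells of skeletal muscle), sorted from the same animal as PI- CD31- CD45- Sca1+ cells with or without the surface protein DPPIV. Bulk RNA sequencing was done on 2 wild-type adult mice, called mouse 1 and mouse 2 (231H6 and 235H5 in the labels), which gave 4 libraries. Both mice had received 3 weeks of CSF1R inhibition (PLX73086 in chow, by the methods of the study), which depletes the resident macrophages of the muscle and then 3 days without it. Both cell types therefore carry the same treatment, no untreated library was analysed here, and the exact age of these mice was not given in the sources used here. The labels name the tibialis anterior as the tissue, while the extraction protocol describes the muscle of both hindlimbs.

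A cell enters the cycle when D-type cyclins bind CDK4 or CDK6 and phosphorylate the pocket proteins RB1, RBL1 (p107) and RBL2 (p130), which releases E2F transcription factors onto the genes of DNA replication. A later wave of genes, driven through MYB-MuvB and FOXM1, provides the cyclins, kinases and spindle proteins of G2 and mitosis, and in resting cells the same genes are held down by the DREAM complex, which contains RBL2. FAPs of undamaged muscle are known as largely quiescent cells that divide after injury. In bulk RNA, a larger share of cycling cells and more RNA per cell cannot be told apart, and neither can fewer cells of a type and less RNA per cell.

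The libraries held between 18240110 and 20879405 reads counted on genes. By these plain totals, 2 CPM (reads scaled to a common total), the filter used below, correspond to between 36.5 and 41.8 reads. All levels below are in CPM scaled by TMM library sizes. The sort was visible in Dpp4, which encodes DPPIV, with 89.8 and 39.7 CPM in DPPIV- FAPs and 728 and 575 CPM in DPPIV+ FAPs (mouse 1, then mouse 2). Its log2 fold change was 3.41, with an adjusted p of 0.178 when the edgeR fit used robust moderation and below the threshold of 0.05 in the 9 other alternatives with a test. Pdgfra, a defining marker of FAPs, had 1159 to 1657 CPM in every library, but was lower in DPPIV+ FAPs (log2 fold change -0.38, adjusted p = 7.56e-07, edgeR). Of 7 FAP markers, 4 were higher in DPPIV+ FAPs (Ly6a, Cd34, Pi16, and Dpp4, whose protein was the basis of the sort). The 3 lower ones were Pdgfra, Dcn and Col1a1.

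Of the 44 genes, 37 passed the filter of at least 2 CPM in at least 2 libraries, and none of the 37 passed it through the libraries of 1 cell type alone. In DPPIV+ FAPs, 8 of the 37 were higher than in DPPIV- FAPs, against 15.9% of all 11588 genes tested, and 0 were lower, against 17.2% of all genes tested (adjusted p under 0.05 by Benjamini-Hochberg, edgeR's quasi-likelihood test, mouse as a block). The 8 genes were Top2a, Rrm1, E2f1, Ccnd1, Ccnd3, Cdkn1a, Rb1 and Rbl1. At an unadjusted p under 0.05, the same edgeR test gave 11 higher and 0 lower, and DESeq2's Wald test gave 6 higher and 0 lower unadjusted and 4 higher (against 7.97% of all genes) and 0 lower (against 8.59%) after adjustment. Without the mouse block edgeR gave 5 higher (against 8.64% of all genes) and 0 lower (against 9.66%). The median log2 fold change of the 37 genes was 0.13, beside -0.00 for all genes tested. In 16 of the 37 genes both DPPIV+ libraries lay above both DPPIV- libraries, where 27.8% of all genes tested did so, and in 3 (Birc5, Cenpa and Mcm4) both lay below, where 28.6% did so. Among the 29 genes that were not called are most of those read as marks of dividing cells, among them Mki67, Cdk1, Ccnb1, Pcna and the MCM helicase genes.

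**Figure D1:**
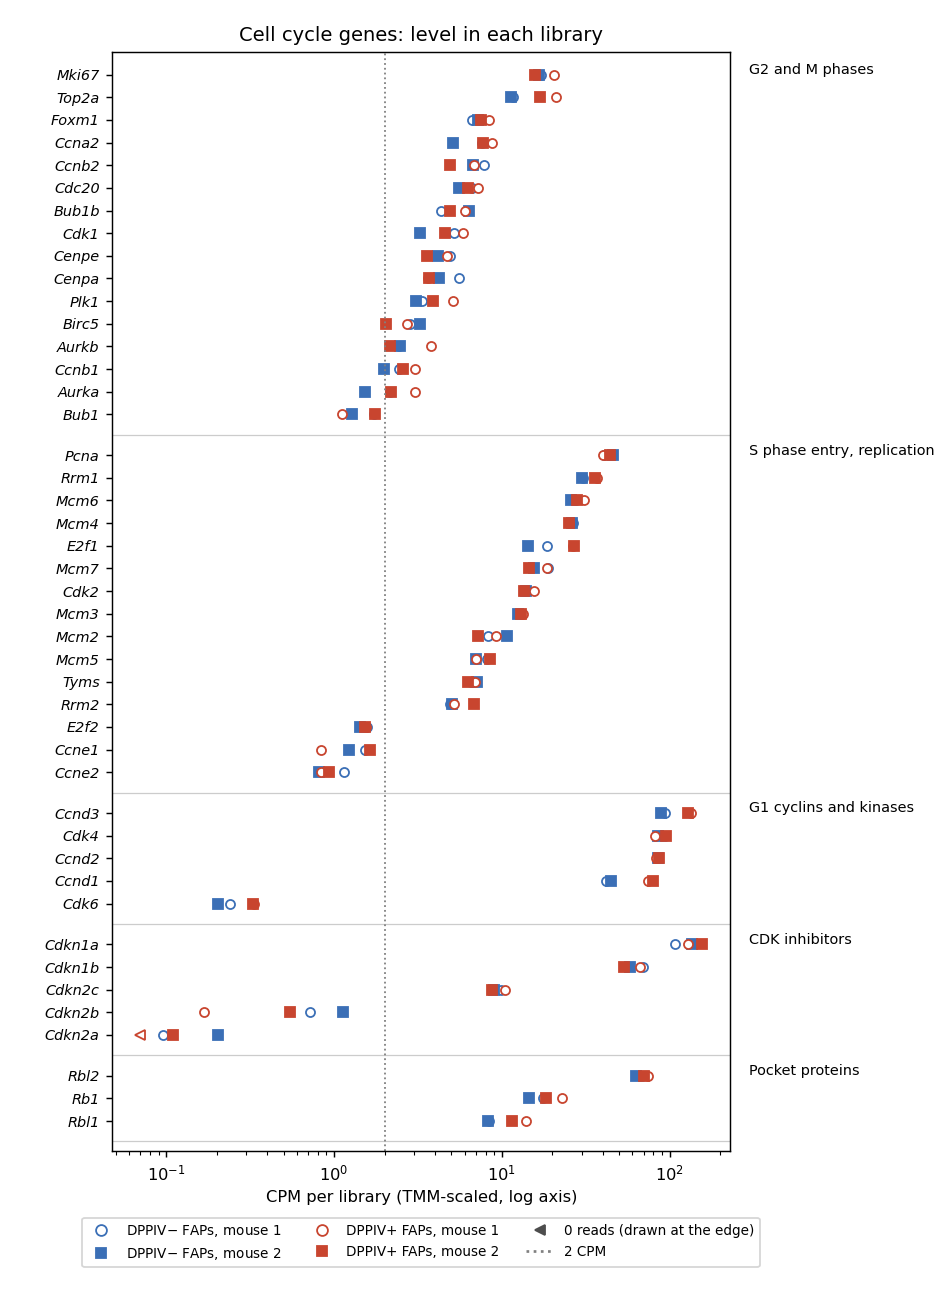
Level of each of the 44 genes in each library, in CPM on a log axis, grouped by role, with blue for DPPIV- FAPs, red for DPPIV+ FAPs, open circles for mouse 1, filled squares for mouse 2 and a dotted line at 2 CPM. Ccnd1, Ccnd3, E2f1, Top2a and Rbl1 show both red points to the right of both blue points, while the points of Mki67, Pcna, Mcm2 and Cdk4 are intermixed, and a triangle at the left edge marks 0 reads.

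The 16 genes of the G2 and M phases were low in all libraries. Only Top2a differed between the cell types past the threshold, 1 of 15 tested. Higher genes were thus 6.67%, against 15.9% of all genes tested, and 0 were lower, against 17.2% (edgeR). Summed over the 16 genes, the level was 92.2 and 84.1 CPM in DPPIV- FAPs (mouse 1, then mouse 2) and 111 and 90.4 CPM in DPPIV+ FAPs. The DPPIV+ library was the higher of each mouse, by 0.27 on the log2 scale in mouse 1 and 0.10 in mouse 2, but the sum in DPPIV+ FAPs of mouse 2 lay under that in DPPIV- FAPs of mouse 1, so the groups overlapped.

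The promoters of Top2a, Mki67 and Cdk1 are shown because genes of G2 and mitosis share 2 short elements, the CCAAT box bound by NF-Y and the CHR (cell cycle genes homology region) bound by DREAM and MYB-MuvB, and because these 3 genes, which carry both, had different results. Each sequence runs 5′ to 3′ from 250 bases before to 50 bases after the start site (RefSeq, GRCm38.p6), with capitals for the letters CCAAT, for the CHR letters TTTGAA or TTCGAA and for the E2F letters TTTGGCGC, TTTCGCGC, TTCCCGCC or TTTCCCGC, on either strand. They lie at chr11:99024140-99024439 (Top2a), chr7:135716330-135716629 (Mki67) and chr10:69352863-69353162 (Cdk1), all on the minus strand.
Top2a: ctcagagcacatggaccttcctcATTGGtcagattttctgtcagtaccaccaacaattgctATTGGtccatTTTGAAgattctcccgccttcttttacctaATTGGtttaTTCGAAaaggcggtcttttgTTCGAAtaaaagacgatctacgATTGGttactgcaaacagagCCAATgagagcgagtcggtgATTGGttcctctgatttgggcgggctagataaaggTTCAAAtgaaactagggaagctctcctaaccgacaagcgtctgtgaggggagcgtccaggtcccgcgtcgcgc
Mki67: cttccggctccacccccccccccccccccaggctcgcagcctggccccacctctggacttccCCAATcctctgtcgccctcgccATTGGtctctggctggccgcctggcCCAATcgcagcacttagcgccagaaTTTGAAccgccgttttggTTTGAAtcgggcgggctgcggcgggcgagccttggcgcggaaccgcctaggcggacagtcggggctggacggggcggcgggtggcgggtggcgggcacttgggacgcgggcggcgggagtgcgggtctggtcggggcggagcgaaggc
Cdk1: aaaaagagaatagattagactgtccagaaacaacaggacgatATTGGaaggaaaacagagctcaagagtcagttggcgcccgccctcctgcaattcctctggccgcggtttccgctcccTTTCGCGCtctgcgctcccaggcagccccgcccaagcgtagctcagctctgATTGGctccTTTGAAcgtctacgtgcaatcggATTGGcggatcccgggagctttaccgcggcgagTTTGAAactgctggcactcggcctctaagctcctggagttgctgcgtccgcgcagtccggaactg

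The Top2a window held 6 CCAAT letters and 4 CHR letters (2 of TTTGAA and 2 of TTCGAA), the Mki67 window 3 CCAAT and 2 TTTGAA, and the Cdk1 window 3 CCAAT, 2 TTTGAA and 1 TTTCGCGC. In Cdk1 the first base of 1 CHR lies 15 bases before the start site. Of the 13 genes of this group with a RefSeq promoter, 12 (92.3%) held CCAAT and 10 (76.9%) held a CHR, where 37.4% and 19.2% of all 32851 promoters of the same length did. A match of letters is a description and not a site of binding.

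Top2a (ENSMUSG00000020914.17, chromosome 11 from 98992943 to 99024189 on GRCm38), the topoisomerase that untangles chromosomes before they part, had 11.6 and 11.4 CPM in DPPIV- FAPs (mouse 1, then mouse 2) and 21 and 16.9 CPM in DPPIV+ FAPs. Both DPPIV+ libraries were above both DPPIV- libraries, and the spread between the mice was wider in DPPIV+ FAPs (SD 2.94 CPM, n = 2 mice) than in DPPIV- FAPs (SD 0.15 CPM). The log2 fold change was 0.72 (standard error 0.12), a 1.64-fold difference (adjusted p = 7.43e-08, edgeR), and with DPPIV+ FAPs of mouse 1 left out and no mouse term it was 0.55 (adjusted p = 0.0715, edgeR).

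Mki67 (ENSMUSG00000031004.8, chromosome 7 from 135689784 to 135716361), which encodes the proliferation antigen Ki-67, had 17.1 and 16.7 CPM in DPPIV- FAPs and 20.3 and 15.8 CPM in DPPIV+ FAPs. The DPPIV+ libraries held the highest and the lowest value, and the direction differed between the mice, mouse 1 at 0.25 and mouse 2 at -0.08 on the log2 scale. The fitted log2 fold change was 0.09 (95% interval -0.13 to 0.32, adjusted p = 0.602, edgeR). Read against exon length, Mki67 and Top2a stood at a similar mean level over the 4 libraries, 1.74 and 1.69 CPM per kb of exon.

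Cdk1 (ENSMUSG00000019942.13, chromosome 10 from 69335146 to 69352938), the kinase that starts mitosis, had 5.21 and 3.27 CPM in DPPIV- FAPs and 5.89 and 4.55 CPM in DPPIV+ FAPs. In the fit the difference was 0.31 on the log2 scale (95% interval -0.11 to 0.73, adjusted p = 0.30, edgeR). Ccnb1 (ENSMUSG00000041431.16, chromosome 13 from 100778650 to 100786570), the cyclin B1 partner of CDK1, had 2.44 and 1.99 CPM in DPPIV- FAPs and 3.05 and 2.58 CPM in DPPIV+ FAPs, with 39 to 55 reads per library. Both of its DPPIV+ libraries were above both DPPIV- libraries, yet its log2 fold change of 0.35 had a 95% interval from -0.17 to 0.87 (adjusted p = 0.358, edgeR). Reads of Ccnb1 are uncertain, since 1287 bases of its transcript are 99.2% identical to the pseudogene Ccnb1-ps, which the counts do not list.

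The other members of the group went both ways without passing the threshold. Aurka and Plk1, kinases of the spindle poles and of mitotic entry, and Ccna2 (cyclin A2) had the largest positive log2 fold changes, 0.51, 0.49 and 0.38, and in each both DPPIV+ libraries were above both DPPIV- libraries. Their adjusted p values in edgeR were 0.159, 0.0983 and 0.0923. Cenpa, which marks centromeres, Birc5 (survivin) and Ccnb2 (cyclin B2) had -0.42, -0.36 and -0.31. Aurkb, Bub1b, Cdc20, Cenpe and Foxm1 lay between -0.12 and 0.26, and Bub1, a checkpoint kinase with 20 to 36 reads per library, was under the filter. The median standard error of a log2 fold change in this group was 0.22, beside 0.10 over all genes tested.

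**Figure D2:**
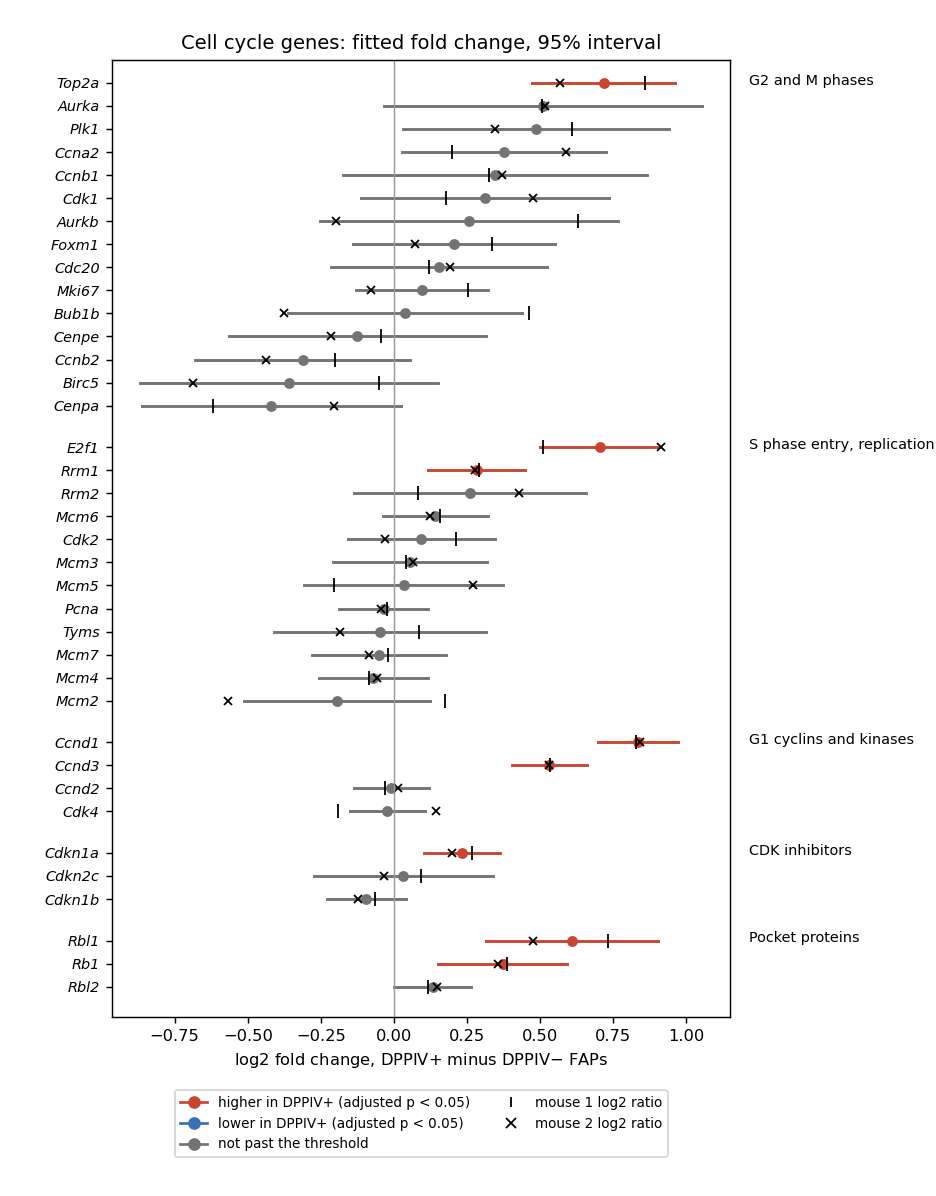
Fitted log2 fold change (DPPIV+ minus DPPIV- FAPs) of the 37 genes tested, with 95% intervals as lines, red for an adjusted p under 0.05 and grey for the rest, and with the log2 ratio of mouse 1 (bars) and mouse 2 (crosses). The 8 red genes lie between 0.23 and 0.84 and no gene is past the threshold on the negative side.

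Of the genes of S phase entry and DNA replication, 12 of 15 were tested and 2 were higher in DPPIV+ FAPs, E2f1 and Rrm1. This share of 16.7% was near the 15.9% of all genes tested, and 0 were lower, against 17.2% (edgeR). Summed, the 15 genes had 221 and 217 CPM in DPPIV- FAPs (mouse 1, then mouse 2). In DPPIV+ FAPs they had 239 and 235 CPM. The log2 ratio was 0.11 in each mouse, and both DPPIV+ sums were above both DPPIV- sums. Most of the difference in the mean sum (219 against 237 CPM) came from the 2 called genes. E2f1 had means of 16.5 and 26.8 CPM, and Rrm1 of 30.1 and 36.6 CPM (DPPIV-, then DPPIV+ FAPs).

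E2f1 (ENSMUSG00000027490.17, chromosome 2 from 154559407 to 154569892), the transcription factor released from RB1 at the start of S phase, had 18.7 and 14.3 CPM in DPPIV- FAPs and 26.6 and 27.0 CPM in DPPIV+ FAPs. The groups did not overlap, and the ratio was larger in mouse 2 (0.91 on the log2 scale) than in mouse 1 (0.51). Its fitted log2 fold change was 0.70 (standard error 0.10), a 1.63-fold difference (adjusted p = 1.45e-10, edgeR), and with DPPIV+ FAPs of mouse 2 left out and no mouse term the adjusted p was 0.0539 (edgeR).

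Rrm1 (ENSMUSG00000030978.10, chromosome 7 from 102441695 to 102469771), the large subunit of ribonucleotide reductase, which makes the building blocks of DNA, had 30.3 and 29.9 CPM in DPPIV- FAPs and 37.1 and 36.2 CPM in DPPIV+ FAPs. All 4 values were close within their group, mouse 1 at a log2 ratio of 0.29 and mouse 2 at 0.28. The log2 fold change of 0.28 (standard error 0.08) is a 1.22-fold difference (adjusted p = 0.00371, edgeR), which DESeq2's Wald test did not call (adjusted p = 0.306), nor edgeR without the mouse term (adjusted p = 0.0588). Rrm2, the small subunit, whose level is known to follow S phase, had 4.87 and 5.06 CPM in DPPIV- FAPs and 5.17 and 6.80 CPM in DPPIV+ FAPs (fitted log2 difference 0.26, 95% interval -0.14 to 0.66, adjusted p = 0.366, edgeR).

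The promoters of Rrm1 (chr7:102441445-102441744, plus strand) and, from the pocket proteins, Rbl1 (chr2:157204485-157204784, minus strand) are shown because both genes were called and both windows hold E2F letters, TTCCCGCC in Rrm1 and TTTCGCGC in Rbl1, with capitals as above.
Rrm1: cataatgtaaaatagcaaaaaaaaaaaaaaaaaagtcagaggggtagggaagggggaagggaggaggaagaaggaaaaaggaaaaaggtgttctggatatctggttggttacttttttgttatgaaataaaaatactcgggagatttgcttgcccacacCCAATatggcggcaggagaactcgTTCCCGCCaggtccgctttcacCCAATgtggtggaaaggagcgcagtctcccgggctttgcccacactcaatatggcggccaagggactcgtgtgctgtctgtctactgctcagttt
Rbl1: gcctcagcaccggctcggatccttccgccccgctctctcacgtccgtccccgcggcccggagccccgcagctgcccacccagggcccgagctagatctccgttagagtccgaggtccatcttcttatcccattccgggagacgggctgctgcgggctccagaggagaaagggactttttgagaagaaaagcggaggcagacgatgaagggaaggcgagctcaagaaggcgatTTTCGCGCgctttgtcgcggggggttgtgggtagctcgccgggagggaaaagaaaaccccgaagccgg

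E2F letters start 67 bases before the start site in Rrm1 and 18 bases before it in Rbl1, and Rrm1 also held 2 CCAAT letters. The windows of the called genes Top2a, E2f1, Ccnd3 and Cdkn1a held none of the E2F letters. The E2f1 window (chr2:154569377-154569676, minus strand) lies inside the gene, whose 5′ end in GENCODE is at 154569892. Bases before that end were not searched, so this window does not describe them. Windows of Mcm3, Mcm5, Mcm6, Mcm7, Cdk1 and Cdk2, which were not called, did hold them. So did windows of E2f2 and Cdkn2a, which were not tested. Of 15 promoters listed for 13 genes of the replication group, 7 (46.7%) held any of the 4 E2F letters, where 3.49% of all promoters did, and 1 of 13 in the G2 and M group did. Over all 44 genes, 36 had a RefSeq promoter, and Ccnd1 and Rb1 were among those without an entry.

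The helicase subunits and their partners did not differ past the threshold. Mcm2 to Mcm7, which together form the ring that opens DNA at origins, had log2 fold changes from -0.19 (Mcm2) to 0.14 (Mcm6). Mcm4 had 26.5 and 26.0 CPM in DPPIV- FAPs and 25.0 and 25.0 CPM in DPPIV+ FAPs. Pcna, the sliding clamp of the DNA polymerases, had 40.6 and 45.7 CPM in DPPIV- FAPs and 39.9 and 44.3 CPM in DPPIV+ FAPs. DPPIV+ minus DPPIV- came to -0.04 on the log2 scale, with a 95% interval from -0.19 to 0.12. Both libraries of mouse 2 were above both of mouse 1, a difference between the mice that did not pass the threshold (adjusted p = 0.212, edgeR). Cdk2 and Tyms (thymidylate synthase) had 0.09 and -0.05. Reads of Mcm7 and Pcna are uncertain, since 2157 bases of Mcm7 are 97.7% identical to Gm5487 and 781 bases of Pcna are 99.2% identical to Pcna-ps2. Ccne1 and Ccne2, the E cyclins that drive CDK2, and E2f2 were under the filter, with 15 to 33 reads per library.

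The D-type cyclins gave the clearest differences, with Ccnd1 and Ccnd3 higher in DPPIV+ FAPs in both mice and Ccnd2 between 83.0 and 86.5 CPM in all 4 libraries. Of this group 4 of 5 genes were tested and 2 were called higher (50%, against 15.9% of all genes tested, edgeR). None was called lower, against 17.2%. Ccnd1 (ENSMUSG00000070348.5, chromosome 7 from 144929931 to 144939925), cyclin D1, had 41.7 and 44.7 CPM in DPPIV- FAPs (mouse 1, then mouse 2) and 74.0 and 80.0 CPM in DPPIV+ FAPs. The gap between the groups was many times the spread within them, mouse 1 at a log2 ratio of 0.83 and mouse 2 at 0.84. Its fitted log2 fold change was 0.84 (standard error 0.07), a 1.78-fold difference (adjusted p = 8.94e-32, edgeR).

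Ccnd3 (ENSMUSG00000034165.16, chromosome 17 from 47505051 to 47599691), cyclin D3, had 93.2 and 89.1 CPM in DPPIV- FAPs and 135 and 129 CPM in DPPIV+ FAPs. The groups did not overlap, and the log2 ratio was 0.53 in each mouse. The log2 fold change was 0.53 (standard error 0.07), a 1.45-fold difference (adjusted p = 9.65e-15, edgeR). Ccnd1 and Ccnd3 were past the threshold in all 10 alternatives with a test, with a largest adjusted p of 0.00469 and 0.0224 (edgeR without the mouse term and with 1 library left out).

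Ccnd2, cyclin D2, had 84.8 and 85.8 CPM in DPPIV- FAPs and 83.0 and 86.5 CPM in DPPIV+ FAPs. The fitted difference was -0.01 on the log2 scale, with a 95% interval from -0.14 to 0.12. Cdk4, the kinase partner of all D cyclins, had 93.8 and 85.7 CPM in DPPIV- FAPs and 82.2 and 94.7 CPM in DPPIV+ FAPs, where the libraries moved in opposite directions in the mice (-0.19 in mouse 1, 0.14 in mouse 2, log2). Its log2 fold change was -0.02 with a 95% interval from -0.15 to 0.11. Cdk6, the other D cyclin kinase, had 4 to 6 reads per library and was not tested. Per kb of exon, Cdk4 stood at 27.4 CPM and Cdk6 at 0.0198 CPM over the 4 libraries, and Ccnd1 went from 9.17 CPM per kb in DPPIV- FAPs to 16.4 CPM per kb in DPPIV+ FAPs, while Ccnd3 went from 10.4 to 15.

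On the opposite strand, Ccnd1 shares 1100 exon bases (23.4%) with LTO1, Ccnd3 shares 361 with Bysl and Cdk4 shares 641 with Tspan31. LTO1, listed under an older symbol, had 228 to 265 reads per library, against 872 and 874 reads of Ccnd1 in DPPIV- FAPs and 1333 and 1459 in DPPIV+ FAPs. The strand setting of the counting was not given in the sources used here, so reads of these pairs could be split differently.

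**Figure D3:**
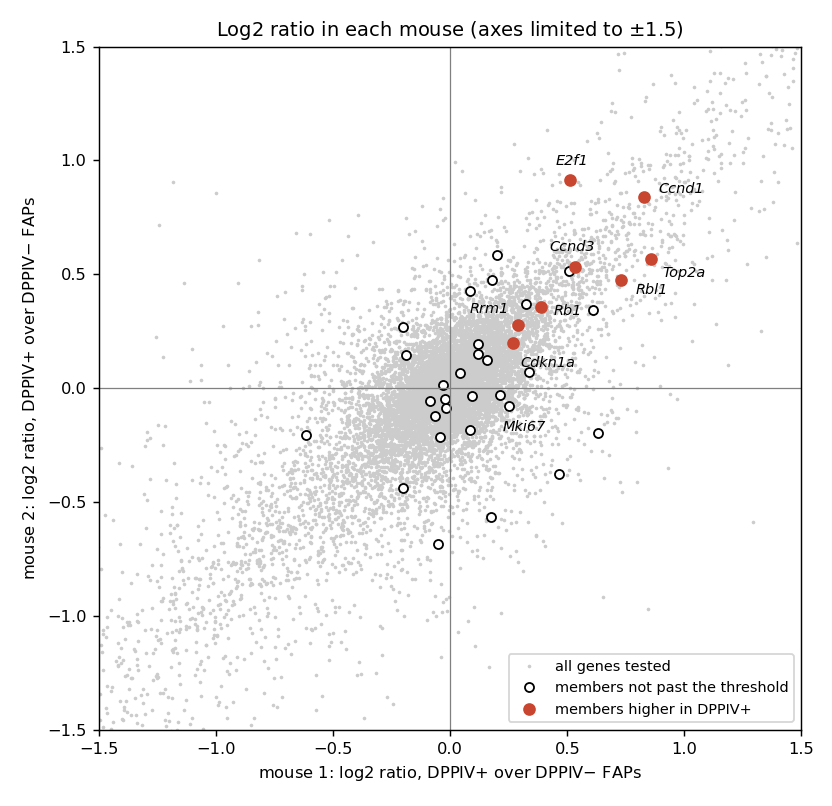
Log2 ratio of DPPIV+ over DPPIV- FAPs in mouse 1 (x axis) and mouse 2 (y axis) for the genes tested (grey, those within the axes of -1.5 to 1.5), the cell cycle genes not past the threshold (open circles) and the 8 past it (red). The 8 red genes have a positive ratio in both mice, while Mki67 lies at 0.25 and -0.08.

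Of 5 CDK inhibitors, 3 were tested and 1 was called higher (33.3%, against 15.9% of all genes tested, edgeR). None was called lower, against 17.2%. Cdkn1a (ENSMUSG00000023067.14, chromosome 17 from 29090976 to 29100727), which encodes p21, the inhibitor induced by p53, had 108 and 136 CPM in DPPIV- FAPs (mouse 1, then mouse 2) and 129 and 156 CPM in DPPIV+ FAPs. The DPPIV+ library was the higher one within each mouse, but the DPPIV- library of mouse 2 was above the DPPIV+ library of mouse 1, so the groups overlapped. Its fitted log2 fold change was 0.23 (standard error 0.07), a 1.17-fold difference (adjusted p = 0.00191, edgeR), which DESeq2's Wald test did not call (adjusted p = 0.143), nor edgeR without the mouse term (adjusted p = 0.326). Its exons share 273 bases with an unnamed gene on the opposite strand (AC167363.2) that the counts do not list. Per kb of exon, Cdkn1a had the highest mean level of the 44 genes, 37.2 CPM.

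Cdkn1b, which encodes p27, the inhibitor tied to quiescence, had 69.5 and 58.1 CPM in DPPIV- FAPs and 66.4 and 53.3 CPM in DPPIV+ FAPs. In the fit the difference was -0.09 on the log2 scale (95% interval -0.23 to 0.04, adjusted p = 0.326, edgeR). Cdkn2c, which encodes p18, had 9.84 and 9.0 CPM in DPPIV- FAPs and 10.5 and 8.78 CPM in DPPIV+ FAPs. DPPIV+ minus DPPIV- came to 0.03 on the log2 scale. Cdkn2a and Cdkn2b, neighbouring genes for p16, p19ARF and p15 that mark senescent cells, were under the filter. Cdkn2b had 15 and 22 reads in DPPIV- FAPs and 3 and 10 reads in DPPIV+ FAPs, and in an edgeR fit without the filter its adjusted p was 0.147. Cdkn2a had 2 and 4 reads in DPPIV- FAPs and 0 and 2 reads in DPPIV+ FAPs, where a count of 0 allows up to 3 reads, or 0.167 CPM.

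Between the mice, the 2 inhibitors of the p21 and p27 type were the genes of the 44 that differed, 2 of 37 tested, where 8.98% of all genes tested differed between mouse 2 and mouse 1 in the same model (4.47% higher and 4.51% lower in mouse 2). Cdkn1a was higher in mouse 2 (fitted log2 difference 0.30, standard error 0.07, adjusted p = 0.000167, edgeR), in both cell types. Cdkn1b was lower in mouse 2 (fitted log2 difference -0.29, standard error 0.07, adjusted p = 0.000862, edgeR), also in both cell types. At an unadjusted p under 0.05, 7 of the 37 genes differed between the mice in edgeR, and DESeq2's Wald test gave 0 after adjustment and 2 before it.

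All 3 pocket proteins were tested, and 2 were higher in DPPIV+ FAPs (66.7%, against 15.9% of all genes tested, edgeR). DESeq2's Wald test called 0 of them after adjustment (against 7.97% higher of all genes). Rbl1 (ENSMUSG00000027641.13, chromosome 2 from 157145893 to 157204534), p107, itself a target of E2F, had 8.36 and 8.28 CPM in DPPIV- FAPs (mouse 1, then mouse 2) and 13.9 and 11.5 CPM in DPPIV+ FAPs. The groups did not overlap, and the log2 fold change was 0.61 (standard error 0.15), a 1.52-fold difference (adjusted p = 0.000269, edgeR), with an adjusted p of 0.110 in DESeq2's Wald test. In edgeR without the mouse term its adjusted p was 0.0540 without DPPIV- FAPs of mouse 1, 0.195 without DPPIV+ FAPs of mouse 1 and 0.0656 without DPPIV- FAPs of mouse 2.

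Rb1 (ENSMUSG00000022105.6, chromosome 14 from 73183673 to 73325822), the retinoblastoma protein, had 17.5 and 14.4 CPM in DPPIV- FAPs and 22.9 and 18.4 CPM in DPPIV+ FAPs. Each DPPIV+ library was above both DPPIV- libraries, by a narrow margin in mouse 2. The log2 fold change was 0.37 (standard error 0.11), a 1.29-fold difference (adjusted p = 0.00406, edgeR), with an adjusted p of 0.280 in DESeq2's Wald test and 0.153 in edgeR without the mouse term. On the opposite strand Rb1 shares 488 exon bases with Rcbtb2, which had 608 to 883 reads, and 408 with Lpar6, against 282 to 412 reads of Rb1 itself. Rbl2, p130, the pocket protein of resting cells, had 68.1 and 63.4 CPM in DPPIV- FAPs and 73.9 and 70.3 CPM in DPPIV+ FAPs, with both DPPIV+ libraries above both DPPIV- libraries, a log2 fold change of 0.13 (95% interval 0.00 to 0.26) and an adjusted p of 0.124 (edgeR). Per kb of exon Rbl2 stood at 9.12 CPM over the 4 libraries, Rb1 at 3.04 and Rbl1 at 1.75.

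Lists of 99 further genes of the same pathways gave 84 genes tested, of which 9 (E2f7, treated below, among them) were higher and 12 lower in DPPIV+ FAPs, where 15.9% and 17.2% of all genes tested were. Of 32 genes of origin licensing and the replication fork, 26 were tested, 1 was higher and 2 were lower, with a median log2 fold change of 0.06. Pola2, a subunit of the DNA polymerase alpha-primase complex, had 10.8 and 9.30 CPM in DPPIV- FAPs and 14.1 and 13.3 CPM in DPPIV+ FAPs (fitted log2 difference 0.45, adjusted p = 0.00628, edgeR). Prim1, the primase subunit of the same complex, had 4.59 and 5.32 CPM in DPPIV- FAPs and 3.67 and 3.02 CPM in DPPIV+ FAPs (fitted log2 difference -0.57, adjusted p = 0.0415, edgeR). Pola2 and Prim1 differed in opposite directions, and DESeq2's Wald test called neither (adjusted p = 0.282 and 0.523).

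Of 30 genes of mitosis and cytokinesis, 25 were tested, with a median log2 fold change of 0.06. In DPPIV+ FAPs 3 were higher (12%, against 15.9% of all genes tested) and 0 were lower (against 17.2%). Lower genes also numbered 0 at an unadjusted p in edgeR and in DESeq2. Espl1 (ENSMUSG00000058290.4, chromosome 15 from 102296266 to 102324357), the separase that cuts the cohesin ring at anaphase, had 3.63 and 3.22 CPM in DPPIV- FAPs and 6.78 and 7.13 CPM in DPPIV+ FAPs. The groups did not overlap, and the log2 fold change was 1.02 (standard error 0.21, adjusted p = 9.15e-06, edgeR), and with DPPIV+ FAPs of mouse 2 left out and no mouse term the adjusted p was 0.0615 (edgeR). Nusap1, a spindle protein, had 3.30 and 1.99 CPM in DPPIV- FAPs and 4.39 and 4.39 CPM in DPPIV+ FAPs (fitted log2 difference 0.74, adjusted p = 0.00830, edgeR), and DESeq2's Wald test gave an adjusted p of 0.339. The third was Prc1, named after its values were seen, with a log2 fold change of 0.47. The sum over the 30 genes differed by 0.07 on the log2 scale in mouse 1 and 0.03 in mouse 2.

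Of 16 genes of E2F, DREAM and MYB-MuvB subunits, 13 were tested. In DPPIV+ FAPs 1 was higher (7.69%, against 15.9% of all genes tested) and 0 were lower (against 17.2%, also 0 at an unadjusted p in edgeR and in DESeq2). E2f7 (ENSMUSG00000020185.16, chromosome 10 from 110745439 to 110787384), an atypical E2F that represses E2F targets late in S phase, had 0.956 and 0.665 CPM in DPPIV- FAPs and 2.72 and 2.96 CPM in DPPIV+ FAPs, or 20 and 13 reads against 49 and 54. The groups did not overlap. E2f7 passed the filter through its DPPIV+ libraries alone, so that a gene at its level had to differ to be tested, and its call, the 1 of this list, is given as a description only.

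Of 21 genes of growth arrest and of the p53 response, 20 were tested, with a median log2 fold change of -0.16. In DPPIV+ FAPs 4 were higher (20%, against 15.9% of all genes tested) and 10 were lower (50%, against 17.2%). The sum over the list was 2265 CPM in DPPIV- and 1635 CPM in DPPIV+ FAPs of mouse 1, and 2271 and 1674 CPM in mouse 2. Gas1 and Btg2, the most abundant of the lower genes, made up most of that difference, and 8 of the 20 genes had a log2 fold change above zero. Phlda3 (ENSMUSG00000041801.5, chromosome 1 from 135766119 to 135769136), a p53 target that restrains AKT, had 61.9 and 63.2 CPM in DPPIV- FAPs and 27.0 and 31.2 CPM in DPPIV+ FAPs. The fitted difference was -1.11 on the log2 scale (standard error 0.08, adjusted p = 2.28e-44, edgeR). Gadd45b (ENSMUSG00000015312.9, chromosome 10 from 80930073 to 80932204), a stress-induced growth arrest gene, had 133 and 103 CPM in DPPIV- FAPs and 66.5 and 51.3 CPM in DPPIV+ FAPs. In the fit the difference was -1.0 on the log2 scale (standard error 0.07, adjusted p = 8.66e-49, edgeR). For both genes, every DPPIV+ library was below every DPPIV- library.

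Plk2, a p53-induced kinase, had 26.3 and 22.2 CPM in DPPIV- FAPs and 36.0 and 32.2 CPM in DPPIV+ FAPs. DPPIV+ minus DPPIV- came to 0.49 on the log2 scale (standard error 0.09, adjusted p = 3.65e-07, edgeR). With no mouse term, its adjusted p in edgeR was 0.142 without DPPIV+ FAPs of mouse 1 and 0.0671 without DPPIV- FAPs of mouse 2. Gadd45a, a relative of Gadd45b, had 67.6 and 86.4 CPM in DPPIV- FAPs and 85.2 and 94.4 CPM in DPPIV+ FAPs, which overlapped, with a log2 fold change of 0.23 (adjusted p = 0.00219, edgeR, and 0.259 in DESeq2's Wald test). Named after their values were seen, the other lower genes were Gas1 (-0.90), Btg2 (-0.75), Sesn2 (-0.61), Plk3 (-0.37), Btg1 (-0.32), Trp53 (-0.24), Cdkn1c (-0.23) and Gadd45g (-0.22), and the other higher ones were Ccng2 (0.22) and Ccng1 (0.17), each as a log2 fold change. Cdkn1c, which encodes the CDK inhibitor p57, differed in mouse 1 (log2 ratio -0.45) but hardly in mouse 2 (-0.02). DESeq2's Wald test called 1 higher and 5 lower genes of this list (against 7.97% and 8.59% of all genes tested). EdgeR without the mouse block called 1 higher and 4 lower (against 8.64% and 9.66%).

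**Figure D4:**
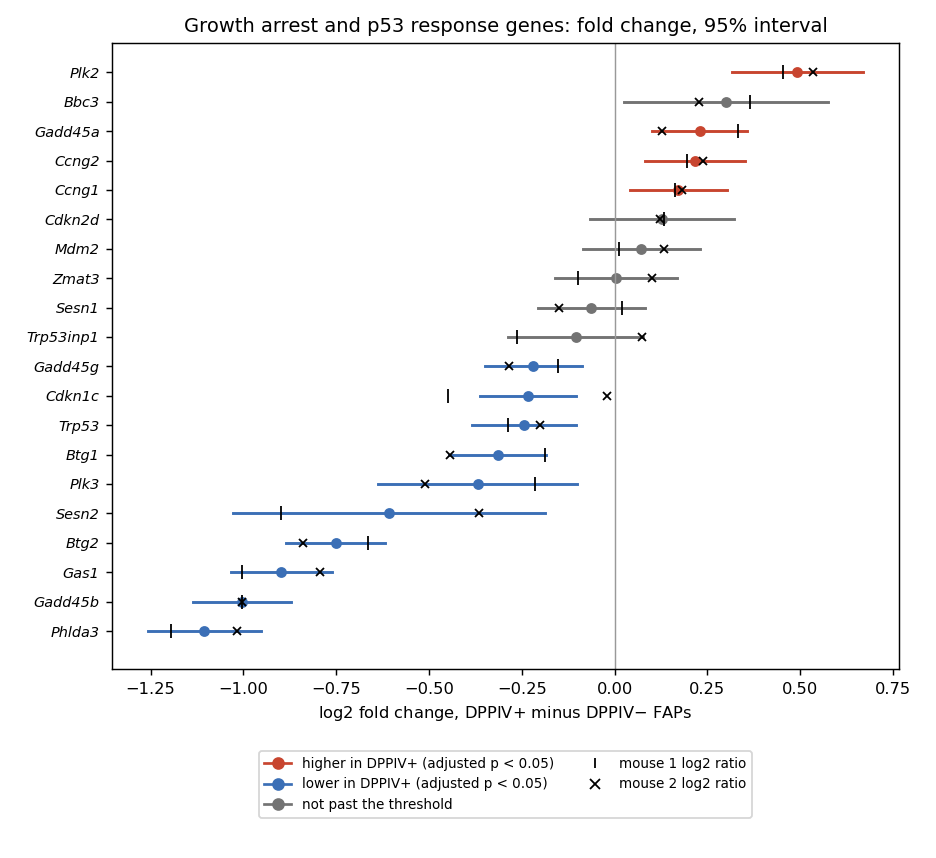
Fitted log2 fold change (DPPIV+ minus DPPIV- FAPs) of the 20 growth arrest and p53 response genes tested, with 95% intervals, red for higher, blue for lower and grey for not past the threshold, and the log2 ratio of each mouse as a bar (mouse 1) or a cross (mouse 2). Phlda3, Gadd45b, Gas1 and Btg2 lie furthest to the left, between -1.11 and -0.75.

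Markers of other cell types moved between the libraries as well. Beside the counts below, edgeR called 15.9% of all genes tested higher and 17.2% lower in DPPIV+ FAPs, and DESeq2 7.97% and 8.59%. Macrophage markers were lower in DPPIV+ FAPs in 6 of 8 tested, with a summed level of 368 and 222 CPM in DPPIV- FAPs (mouse 1, then mouse 2) and 235 and 206 CPM in DPPIV+ FAPs, and Timd4 had no read outside the DPPIV- library of mouse 1, which held 3. Blood endothelial markers were lower in 3 of 5 tested (66.9 and 37.3 CPM against 41.7 and 35.8 CPM), and for both lists DPPIV- FAPs of mouse 1 stood highest. Mural cell markers were lower in 5 of 6 (121 and 123 CPM against 51.2 and 63.5 CPM), and tenocyte markers were higher in 3 of 3 (29 and 35.3 CPM against 60.1 and 105 CPM). Kcnj8 of the mural and Scx of the tenocyte markers passed the filter only through the cell type in which they were high, and are in these counts. DESeq2's Wald test called 0 macrophage (2 at an unadjusted p under 0.05), 0 endothelial (0 unadjusted) and 3 mural markers lower, and 3 tenocyte markers higher.

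Lymphocyte markers had 0 to 3 reads each, with Cd3g and Ms4a1 at 0 in every library, and none was tested. Of the satellite cell markers, Pax7 had 7 to 10 reads, and of 5 genes the 1 tested was not called. Glial markers were lower in 1 of 3 tested (against 17.2% of all genes tested, edgeR). The gate had removed CD31+ and CD45+ cells. The part of such cells in the levels of Top2a, E2f1, Rrm1, the D cyclins, the pocket proteins and the growth arrest genes was not tested.

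**Figure D5:**
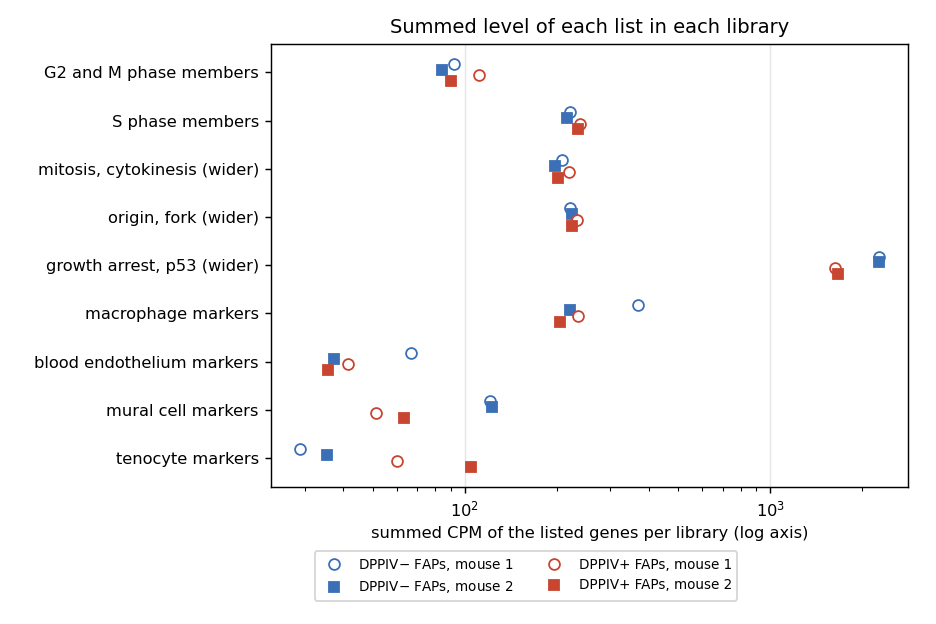
Summed CPM of each gene list in each library, on a log axis, with blue for DPPIV- FAPs, red for DPPIV+ FAPs, open circles for mouse 1 and filled squares for mouse 2. The sums of G2 and M phase and of S phase genes lie close together in all 4 libraries, the growth arrest sum and the mural marker sum are lower in both DPPIV+ libraries, and the tenocyte sum is higher in both.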

How the data were processed

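Per the submitters' processing notes and the study's methods, the authors used bcl2fastq 2.20, STAR, RnaReadCounter and the mm10 genome (Bowtie is also named), and deposited paired-end read counts per gene symbol, with no normalization or filter. The labels give a stranded NEBNext Ultra II kit and the study's methods a TruSeq Stranded kit, and the strand setting and annotation release of the counting were not given in the sources used here.

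The counts were tested with edgeR 4.0.16 in R 4.3.3 on TMM-normalized libraries, in a quasi-likelihood fit with mouse and cell type. The fit covered 11588 genes with 2 CPM or more, by plain read totals, in 2 or more libraries. P-values were two-sided and adjusted by Benjamini-Hochberg over all of them, with a threshold of 0.05. Moderation gave infinite prior degrees of freedom and 1 residual degree of freedom was left, so the spread was borrowed from genes of similar abundance. A standard error is the log2 fold change over the square root of F, and intervals are 95%. Mouse was a block because both libraries of a number come from 1 animal by the labels, and the mouse 2 minus mouse 1 differences of the cell types correlated at 0.415 (over genes). The p-values therefore rest on the residual spread left after the mouse term, pooled over genes, and not on a spread measured for each gene. With 2 mice, they say nothing about other animals. A count of 0 allows up to 3 reads, which covers counting error only, since the reads carry no molecular identifiers. Log2 ratios per mouse used a prior count of 0.125. The test was first run on simulated data. Alternatives were DESeq2 1.42.0, no mouse term, RLE size factors, other filters, robust moderation, and each mouse or library left out.

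The 44 genes, the role groups, the 4 further pathway lists and the 8 marker lists were chosen with earlier results of these data known. Named in full were genes of the 44 past the threshold, with Mki67, Top2a, Cdk1 and Ccnb1, and of each pathway list the called genes that moved alike in each mouse, up to 2 from either end of the log2 fold changes. Positions and exon overlaps are from GENCODE M21 on GRCm38, similar transcripts from BLAST 2.17.0, and promoters from RefSeq on GRCm38.p6. A called gene of the replication list is not reported here by name.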

Additional observations from a re-analysis of the deposited data

How the results depend on the processing

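Over all genes tested, 15.9% were higher and 17.2% lower in DPPIV+ FAPs in the main fit, and 7.97% and 8.59% with DESeq2. Without the mouse block 8.64% were higher and 9.66% lower. The shares over all genes with the other settings are not given here. Of the 8 genes higher in DPPIV+ FAPs, DESeq2's Wald test called 4 (Top2a, E2f1, Ccnd1 and Ccnd3), while RLE size factors, no filter, 2 CPM in at least 3 libraries and robust moderation each gave 8. Genes lower in DPPIV+ FAPs numbered 0 in these fits and in those below. Without the replicate block (the pairing by mouse) 5 were higher, and with 1 library left out as well 3 to 5, lowest without DPPIV+ FAPs of mouse 1. The further pathway lists gave 21 calls, 8 with DESeq2, 7 without the block and 6 to 11 with 1 library left out. The 2 genes that differed between the mice became 0 with DESeq2. The median log2 fold change of 0.1323 was 0.08401 without the filter and ran from 0.07287 to 0.1709 with 1 library left out (0.08212 without DPPIV- FAPs of mouse 2) and from 0.1246 to 0.1748 with a mouse left out. The mean log2 ratio of the summed G2 and M phase genes was 0.1888 and ran from 0.0378 (without DPPIV+ FAPs of mouse 1) to 0.3415 (without DPPIV+ FAPs of mouse 2), and that of the S phase genes was 0.1117 and ran from 0.09789 to 0.1283 (0.0995 and 0.1256 without the DPPIV+ library of mouse 1 or mouse 2).

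Direction turned only in genes not past the threshold. With 1 library left out and no block, the turned log2 fold changes were, without DPPIV+ FAPs of mouse 1, Mki67 -0.09403, Aurkb -0.1922, Bub1b -0.1274, Cdk2 -0.008801, Cdkn2c -0.1025, Pcna 0.03711, Ccnd2 0.0208 and Cdk4 0.0776. Without DPPIV- FAPs of mouse 1 they were Bub1b -0.2179, Cenpe 0.003098, Mcm7 0.1046, Cdk4 0.04858 and Cdkn1b 0.04533. Without DPPIV- FAPs of mouse 2 they were Mcm2 0.006465, Mcm5 -0.06234, Pcna 0.05185, Tyms 0.01113, Ccnd2 1.199e-05 and Cdkn2c -0.03086. Without DPPIV+ FAPs of mouse 2 they were Cenpe 0.06697, Mcm5 -0.1049, Mcm7 0.1174, Tyms 0.02649 and Cdkn1b 0.05857. Without the filter Ccnd2 was at 0.00216. The cause of these shifts was not tested.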
